A study of Mus musculus with 3 samples.

Results

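The genes described here encode the digestive machinery of the lysosome, namely its acid hydrolases, proteins of its membrane, the 2 proteins that export cholesterol from it, the proton pump that acidifies it (the vacuolar ATPase, V-ATPase) and the transcription factor Tfeb. The list held 44 genes. A gene was read through probe sets whose annotation named that gene alone, and 42 of the 44 had at least 1 such probe set. Cd63, a membrane protein of late endosomes and lysosomes, and Atp6v0c, the proteolipid of the pump's membrane ring, had none in the annotation used and were not analysed here. Where a gene had several probe sets, the one with the highest mean log2 signal was taken. All 42 genes lay at or above the signal of 76.9 that marked the brighter 50% of probe sets, and 39 of them lay in the brightest 25%, at a signal of 394 or more. They are 42 of 11341 genes kept at that level.

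Hepatic gene expression was measured in the liver of male C57BL/6J mice that received 1 of 3 diets for 15 weeks from 6 weeks of age. HF+SFC mice received a high-fat diet with 60% of its energy from fat, 20% from protein and 20% from carbohydrate, to which sodium ferrous citrate (SFC, a ferrous iron supplement) was added at 0.023% by weight. HF mice received the same high-fat diet without the supplement. Control mice received a purified diet with 10% of its energy from fat, 20% from protein and 70% from carbohydrate. No genetic change is named in the labels. The labels give each sample an age of 21 months, which does not match the feeding times, and the age was not used. For each group the material of all animals was mixed and read on 1 array. With 1 array per diet there were no replicates, the spread between animals cannot be seen, and no test between diets was possible. Each difference below is a difference between 2 arrays. HF over Control shares the HF array with HF+SFC over HF, so that an error on that array moves the 2 ratios in opposite directions.

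The lysosome is the acidic organelle in which material taken up by endocytosis and autophagy is broken down. Cathepsins and other proteases cut proteins, glycosidases and sulfatases remove sugars and sulfate groups, and acid lipase, acid sphingomyelinase and acid ceramidase break down lipids. The V-ATPase joins a membrane part, V0, to a cytosolic part, V1, and uses ATP to pump protons into the lumen. In the liver, lysosomes take part in the breakdown of lipid droplets and of ferritin, the iron store of the cell, and both hepatocytes and Kupffer cells, the resident macrophages, are rich in them. TFEB is known as a regulator of this gene set. It binds the CLEAR element, an E-box with flanking bases that is frequent near the start of lysosomal genes.

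The E-box CACGTG was looked for in the promoter windows of the members. Because the CLEAR element is known from lysosomal genes, a share above that of all genes is not an independent property of this list. The windows, from RefSeq (assembly GRCm38.p6), ran from 250 bases before to 50 bases after the annotated start, and 37 of the 44 genes had one. Both strands were searched for CACGTG, which reads the same on both strands, and for TCACGTG, in which the T that belongs to the CLEAR element precedes it. The longer motif contains the shorter one. The shorter motif was present in 15 of 37 members (40.5%), against 8.09% of 27025 genes in the promoter table and 11.8% of the 9208 kept genes with a window. TCACGTG was present in 14 of 37 members (37.8%), against 4.29% of all genes and 7.08% of kept genes. By role, TCACGTG stood in 8 of 20 hydrolases and activators, in 4 of 10 V-ATPase genes and in 2 of 5 membrane proteins with a window. A match describes these letters and is no evidence that a factor binds there.

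The stretches below hold the matches of Lamp1, which had the most, of Mcoln1, of Ctsd and Atp6v0b, which are described with their values on each array, and of Sgsh and Lgmn, whose ratios were among the lowest in HF+SFC over HF. Each is read 5′ to 3′ on the strand of its gene, lies upstream of the annotated start and shows the E-box in capitals. The stretches are chr8:13159085-13159160 (plus strand) for Lamp1, chr8:3500433-3500494 (plus) for Mcoln1, chr7:142388052-142388077 and chr7:142387905-142387940 (minus) for Ctsd, chr4:117887330-117887380 (minus) for Atp6v0b, chr11:119355519-119355554 (minus) for Sgsh and chr12:102439121-102439156 (minus) for Lgmn.
Lamp1: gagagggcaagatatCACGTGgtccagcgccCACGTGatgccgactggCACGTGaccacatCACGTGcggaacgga
Mcoln1: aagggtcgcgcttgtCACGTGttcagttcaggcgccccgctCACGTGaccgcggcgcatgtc
Ctsd, farther match: tccccCACGTGacctgtatccagtca
Ctsd, nearer match: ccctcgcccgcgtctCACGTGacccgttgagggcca
Atp6v0b: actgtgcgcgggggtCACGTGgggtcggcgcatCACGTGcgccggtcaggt
Sgsh: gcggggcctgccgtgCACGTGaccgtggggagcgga
Lgmn: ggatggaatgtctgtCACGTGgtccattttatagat
Lamp1 carried 4 matches within 61 bases of its start. Mcoln1, Ctsd, Atp6v0b, Ctsa and Gla carried 2 each, and Lgmn, Gaa, Glb1, Naglu, Sgsh, Ctsl, Atp6v0d1, Atp6v0e and Atp6v1a carried 1 each. The match of Ctsl lacked the flanking T. Neither motif was in the windows of Hexa, Neu1, Ppt1 and Tfeb.

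**Figure D1:**
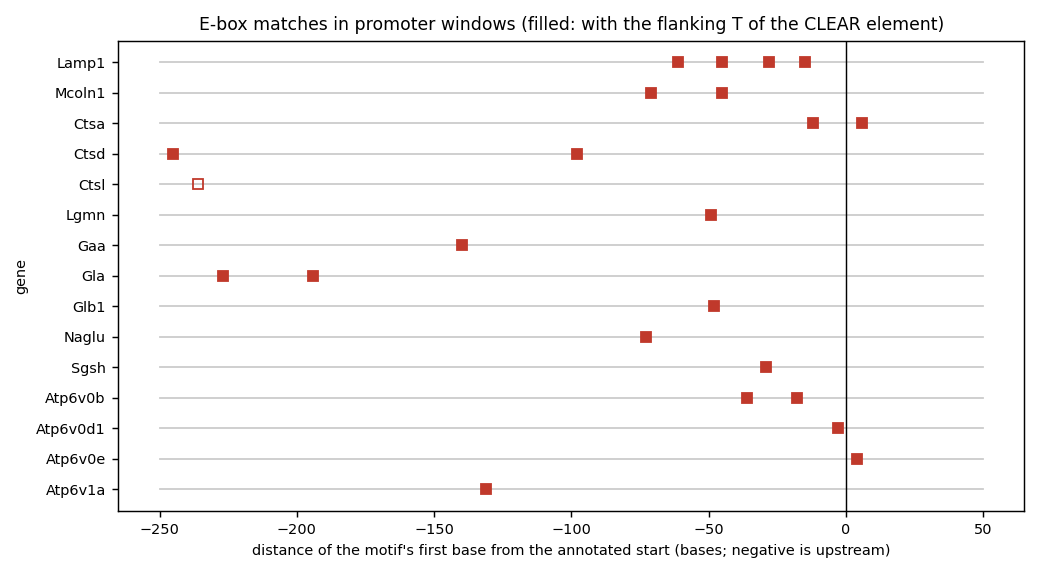
Position of each CACGTG match in the promoter windows of the 15 members that hold one; the x axis is the distance of its first base from the annotated start in bases. Filled squares mark the 22 of 23 matches with the flanking T, and the open square is the match of Ctsl; Lamp1 has 4 matches, 15 to 61 bases before its start.

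The unit of each ratio below is log2 of the signal on one array over the signal on another, and genes differing by 1.5-fold or more (0.585 on the log2 scale), were counted. The brightness of a probe set sets the precision of its ratio. Among the 1287 kept genes at a signal of 4000 or more, 0.544% lay beyond 1.5-fold in HF+SFC over HF, whereas among the 767 genes between 76.9 and 100 the share was 32.6%. In HF over Control the shares were 9.01% and 36.5%. The members have 82 kept probe sets, and 25 of the 42 genes have 2 or more. Probe sets of the same member differed with an SD of 0.26 on the log2 scale in HF over Control and 0.24 in HF+SFC over HF, and with an SD of 0.16 and 0.11 among the probe sets in the brightest 25%. This spread is used as a scale because the replicate error is missing, but it does not measure that error. Probe sets of a gene are read on the same arrays from the same pools, so errors they share do not show in it. It also contains any real differences between the transcripts that those probe sets read.

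Compared with Control-fed mice, 4 of the 42 members were higher by 1.5-fold or more in HF-fed mice and 0 were lower by that much. The 4 were Tfeb and 3 lysosomal hydrolases, Hexa, Neu1 and Ppt1. Across all kept genes, 11.3% were higher by this measure and 5.84% lower, so that the share of members that were higher (9.52%) was close to that of all genes. The median log2 ratio of the members was 0.09, against 0.03 for all kept genes. Above 0 lay 27 of 42 members (64.3%) and 53.1% of all kept genes. The members' median stayed above that of all kept genes under each of the 9 alternative settings, by 0.05 to 0.11. It was 0.06 above with the setting reported here. Median centring cannot change this difference, and several other settings left the members' median as it was. The 9 settings are therefore not 9 separate checks, and all use the same 3 arrays. This holds for the group medians below too. Centring each array on its median signal moved all genes alike, the members to −0.00 and all kept genes to −0.07. With this centring 20 of the 42 members lay above 0. The ratios ranged from −0.41 for Atp6v1f to 2.24 for Tfeb. Among the 39 members in the brightest 25% of signal, 3 were at least 1.5-fold higher, against 6.50% of all genes of that brightness, and 0 were at least 1.5-fold lower, against 4.14%.

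Between HF+SFC and HF the members differed less. Of the 42, 0 were at least 1.5-fold higher and 1, Tfeb, was at least 1.5-fold lower, where 2.88% of all kept genes were higher and 5.33% lower. The median was −0.05, against −0.01 for all kept genes, with 19 members (45.2%) above 0, beside 48.8% of all kept genes. Median centring moved both medians, to 0.07 for the members and 0.11 for all kept genes, and 29 members then lay above 0. Relative to all kept genes the members' median was below 0 under 8 of the 9 alternatives. It was 0.02 above without the probe sets whose suffix is _s_at, _x_at or _a_at. The ratios ranged from −0.89 for Tfeb to 0.28 for Atp6v1f. No member in the brightest 25% lay beyond 1.5-fold in this comparison, where 0.571% of all genes of that brightness were higher and 1.11% lower. In HF+SFC over Control, 2 members, Neu1 and Tfeb, passed 1.5-fold upwards and 0 downwards, against 9.20% and 6.88% of all kept genes. In the brightest 25%, 1 member was higher and 0 lower, against 6.00% and 4.48% of genes. The median was 0.03, against 0.02 for all kept genes.

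**Figure D2:**
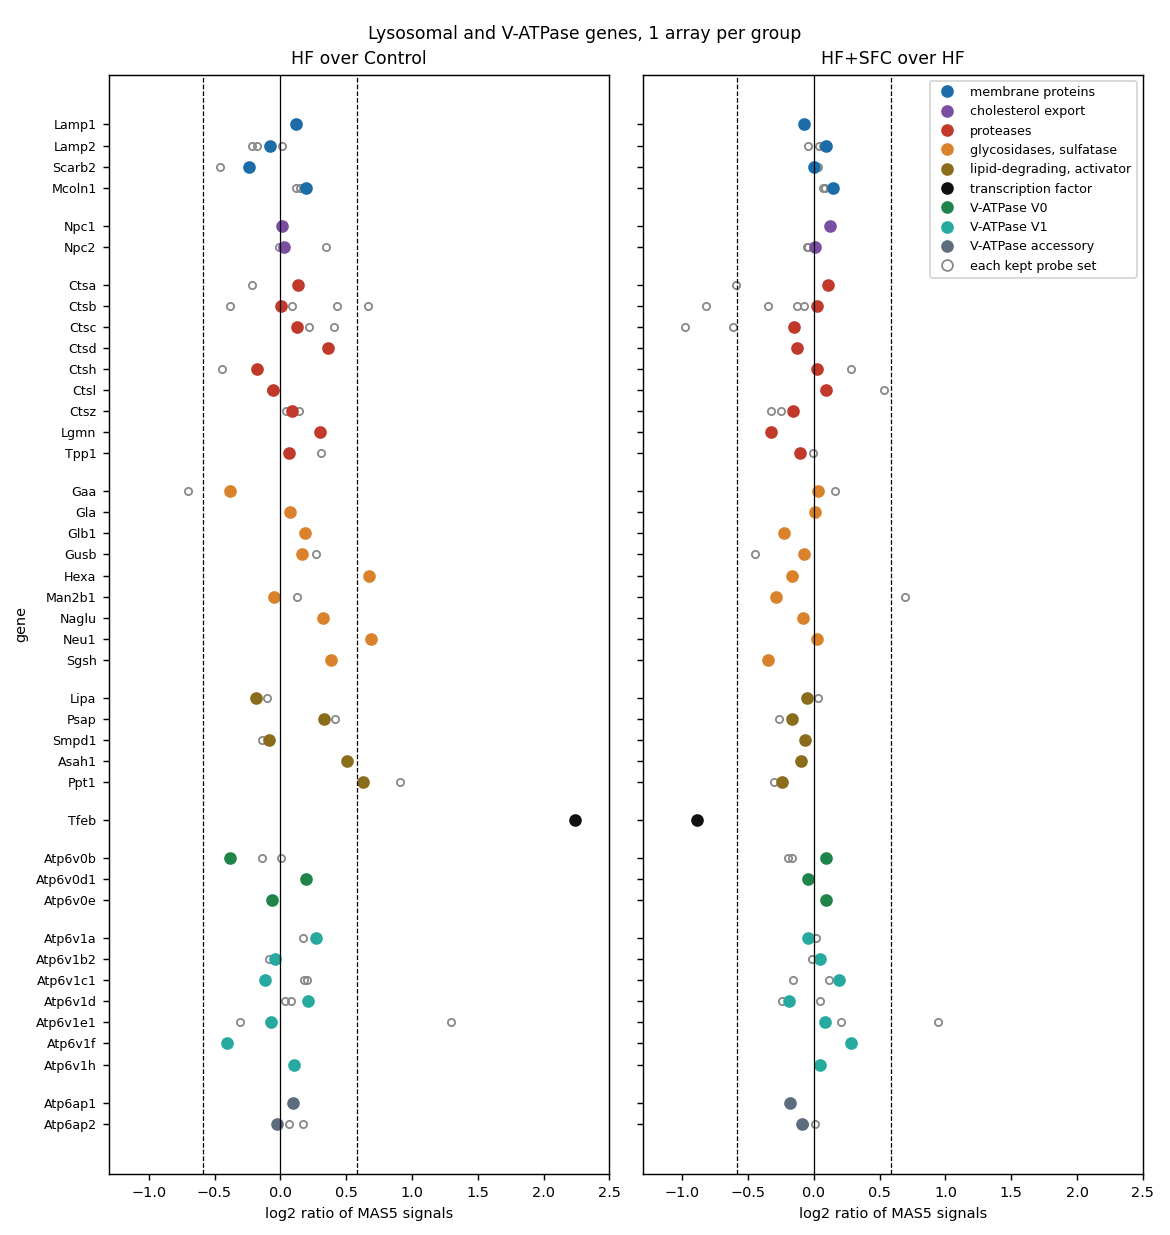
Log2 ratio of MAS5 signals of each of the 42 members, HF over Control on the left and HF+SFC over HF on the right, ordered and coloured by role; filled points are the brightest probe set of a gene, open circles are each kept probe set, and dashed lines mark 1.5-fold. Among the filled points, Tfeb at 2.24 and −0.89 lies farthest from 0 in both panels, and the V-ATPase genes lie between −0.41 and 0.27 in HF over Control.

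Members of the lysosomal membrane differed little between the diets. Scarb2, also known as LIMP-2, carries glucocerebrosidase to the lysosome. Its signal was 9514 in HF+SFC and 9490 in HF, against 11169 in Control. Both high-fat diet arrays thus lay below the Control array, with a log2 ratio of −0.24 between HF and Control and 0.00 between HF+SFC and HF, and the second probe set of Scarb2 gave −0.46 and 0.03. The structural glycoproteins Lamp1 and Lamp2 had ratios of 0.12 and −0.08 in HF over Control, and of −0.08 and 0.09 in HF+SFC over HF. Mcoln1, the calcium and iron channel TRPML1, had ratios of 0.19 and 0.15 in these comparisons, and its 3 kept probe sets lay above 0 in both. Its signals were 896 in HF+SFC, 809 in HF and 708 in Control. Each of these differences is below 1.5-fold.

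Npc1 and Npc2 together move cholesterol out of the lysosome, Npc2 in the lumen and Npc1 in the membrane. The signal of Npc1 was 2013 in HF+SFC, 1845 in HF and 1825 in Control. The HF and Control arrays were nearly alike (0.02), and HF+SFC lay above HF by 0.13 on the log2 scale, about the spread between bright probe sets. Npc2 had ratios of 0.03 in HF over Control and 0.01 in HF+SFC over HF. Neither gene came near 1.5-fold.

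The 9 proteases of the list comprise cathepsins, legumain (Lgmn) and tripeptidyl peptidase 1 (Tpp1). None of them was beyond 1.5-fold in any comparison. All 9 are in the brightest 25% of signal, where 6.50% of genes were higher and 4.14% lower in HF over Control. The shares there were 0.571% and 1.11% in HF+SFC over HF, and 6.00% and 4.48% in HF+SFC over Control. A count of 0 among 9 is not far from this background. Ctsd, the main aspartic protease of the lysosome, had the largest ratio of the group, with signals of 6353 in HF+SFC and 6937 in HF, against 5405 in Control. Its log2 ratio was 0.36 in HF over Control and −0.13 in HF+SFC over HF, so that the HF+SFC array lay between the HF and Control arrays. Ctsd has 1 probe set. Lgmn, an asparaginyl endopeptidase that also matures several cathepsins, had signals of 1195 in HF+SFC, 1498 in HF and 1214 in Control, that is, ratios of 0.30 in HF over Control and −0.33 in HF+SFC over HF. Here the HF array stood above the other two, which differed by −0.02. The cysteine cathepsins Ctsb, Ctsl and Ctsz had ratios of 0.01, −0.06 and 0.09 in HF over Control. The 5 kept probe sets of Ctsb disagreed in direction, from −0.38 to 0.67 in HF over Control and from −0.82 to 0.02 in HF+SFC over HF. The values beyond 1.5-fold came from its dimmest one, with a mean signal of 92.8. Ctsh, an aminopeptidase, was lower by this measure at −0.17, and its second probe set gave −0.44.

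The median over the proteases was 0.09 in HF over Control and −0.11 in HF+SFC over HF, with 7 of 9 above 0 in HF over Control and 5 of 9 below 0 in HF+SFC over HF. Of all kept genes, 53.1% and 48.8% lay above 0 in these comparisons. Relative to all kept genes the first median was 0.06 and stayed above 0 under all 9 alternatives. The second median was −0.10 and was 0.03 above all genes without probe sets whose suffix is _s_at, _x_at or _a_at. Ctsc, cathepsin C, which activates granule proteases of immune cells, showed how far the probe sets of a gene can part. Its brightest probe set gave −0.15 in HF+SFC over HF, whereas its 2 dim probe sets, with mean signals of 179 and 118, gave −0.61 and −0.98. Ctsa, which protects Neu1 and beta-galactosidase within a complex, had 0.11 on its bright probe set and −0.59 on a dim one in the same comparison.

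The glycosidases and the sulfatase Sgsh included 2 of the 3 hydrolases beyond 1.5-fold. Hexa encodes the alpha subunit of beta-hexosaminidase, which removes a sugar from ganglioside GM2. Its signal was 4073 in HF+SFC and 4567 in HF, against 2868 in Control. Both high-fat diet arrays thus stood above the Control array, HF by 1.59-fold (log2 ratio 0.67) and HF+SFC by 1.42-fold (0.51), and HF+SFC differed from HF by −0.17. Hexa has 1 probe set. Under median centring its ratio in HF over Control was 0.58 and lay just below the threshold.

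Neu1, the lysosomal sialidase, had signals of 854 in HF+SFC and 838 in HF, against 520 in Control. The 2 high-fat diet arrays were nearly alike, with a log2 ratio of 0.03, and stood above Control by 0.72 for HF+SFC and 0.69 for HF. HF over Control was 1.61-fold. Neu1 was at least 1.5-fold higher in both comparisons with Control under all 9 alternative settings. Several of these settings cannot change the ratio of a gene with 1 bright kept probe set. Of those that can, median centring gave the lowest ratio in HF over Control, 0.60. Both ratios of Neu1 to Control were below 2-fold. Its other 2 probe sets were not kept because of their low mean signals of 65.9 and 15.5, and they gave −0.28 and −4.15 in HF over Control.

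Among the other members of this group, Sgsh, which desulfates heparan sulfate, had ratios of 0.39 in HF over Control and −0.35 in HF+SFC over HF, on signals of 235 in HF+SFC, 299 in HF and 228 in Control. Naglu, which acts on the same polymer, had 0.33 and −0.08. Gaa, the acid alpha-glucosidase that degrades glycogen, was lower in HF than in Control, with signals of 1422 in HF+SFC and 1393 in HF, against 1813 in Control. Its ratio was −0.38 in HF over Control and its second kept probe set gave −0.70. Both high-fat diet arrays thus lay below Control for Gaa, and HF+SFC over HF was 0.03. Gla, Glb1 and Gusb ranged between 0.08 and 0.18 in HF over Control. Man2b1, lysosomal alpha-mannosidase, had −0.05 and −0.29 on its brightest probe set and 0.13 and 0.69 on a dim one with a mean signal of 220. The median of the 9 genes was 0.18 in HF over Control, and −0.08 in HF+SFC over HF. Relative to all kept genes these medians kept their sign under each of the 9 alternatives, at 0.15 to 0.19 and at −0.10 to −0.06.

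The lipid-degrading group had the highest median of the role groups with more than 1 member in HF over Control, 0.33, and it lay 0.29 or more above that of all kept genes under each alternative. Its 5 genes did not share a direction. Ppt1, palmitoyl-protein thioesterase 1, which removes fatty acids from proteins, had signals of 742 in HF+SFC and 875 in HF, against 567 in Control. HF over Control was 1.54-fold (log2 ratio 0.63), HF+SFC over HF was −0.24, and a second kept probe set gave 0.91 and −0.30. With median centring HF over Control was 0.53, below the threshold. The HF+SFC array lay between HF and Control on both probe sets.

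Asah1, acid ceramidase, stood just below the threshold in HF over Control at 0.51, with signals of 2546 in HF+SFC and 2727 in HF, against 1919 in Control. Psap, the precursor of the saposins that hold lipids for their hydrolases, had 0.33 on its brightest probe set and 0.42 on the other, and −0.17 and −0.27 in HF+SFC over HF. Lipa, the acid lipase that hydrolyses cholesteryl esters and triglycerides of lipoproteins and lipid droplets, differed in direction, with signals of 5466 in HF+SFC and 5678 in HF, against 6469 in Control. Its ratio in HF over Control was −0.19, and its 3 kept probe sets gave values between −0.19 and −0.10. Smpd1, acid sphingomyelinase, had −0.09. In HF+SFC over HF the brightest probe sets of all 5 genes lay below 0, between −0.24 for Ppt1 and −0.05 for Lipa. Of all kept genes, 48.8% lay above 0. Another kept probe set of Lipa gave 0.03. With median centring the group's median was 0.02, and that of all kept genes 0.11. Relative to all kept genes the group's median was −0.12 to −0.08 under the alternatives.

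**Figure D3:**
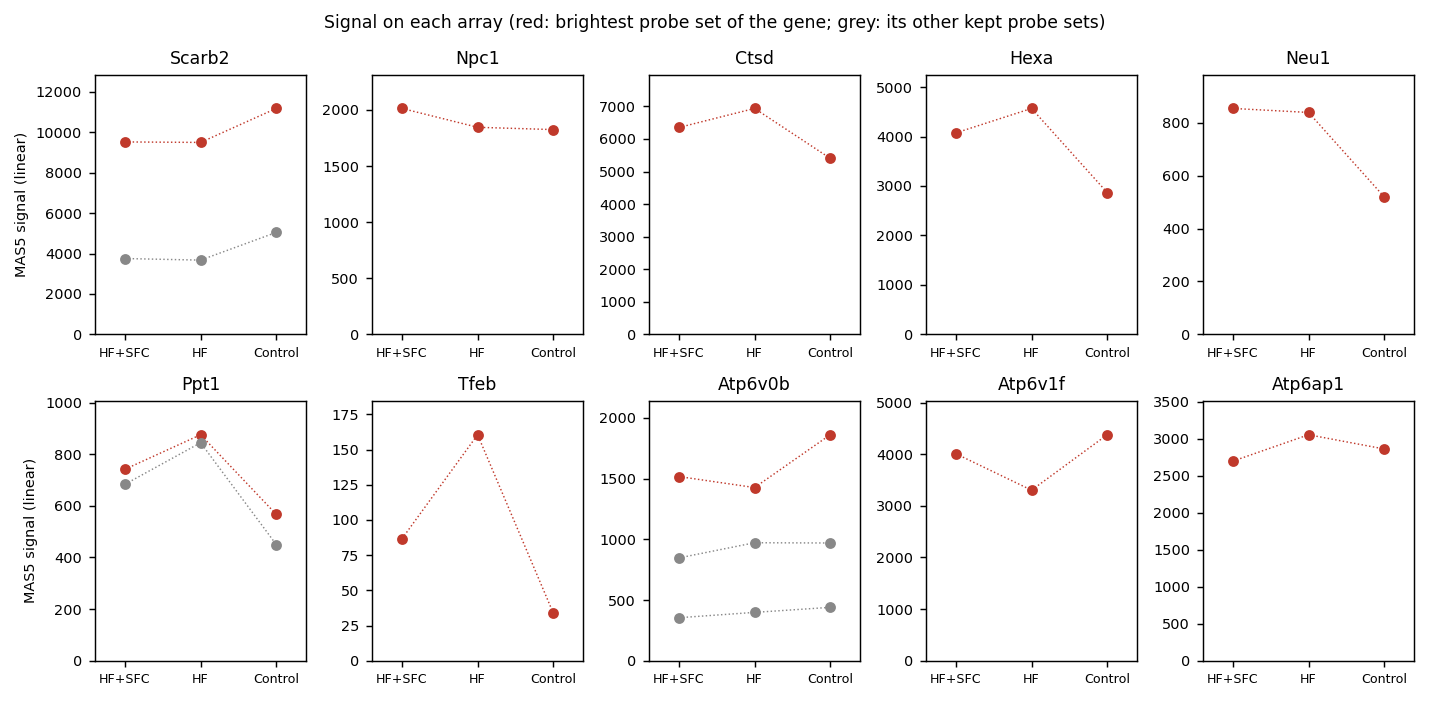
MAS5 signal on a linear scale starting at 0 for the 10 members chosen by rule, on the HF+SFC, HF and Control arrays from left to right; red is the brightest probe set of a gene and grey its other kept probe sets, and the dotted lines only join the arrays. Hexa (4073, 4567 and 2868) and Neu1 (854, 838 and 520) have both high-fat diet arrays above Control, and Tfeb (86.7, 161 and 34.0) has its highest signal in HF.

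Tfeb had the largest ratio of any member in each comparison, and it was read by the dimmest of the probe sets used. Its signal was 86.7 in HF+SFC and 161 in HF, against 34.0 in Control. The order of the arrays was HF, HF+SFC, Control, with a log2 ratio of 2.24 in HF over Control. HF+SFC over HF gave −0.89 and HF+SFC over Control gave 1.35. The probe set is the only one for Tfeb, its mean signal of 77.9 lay just above the level for keeping it, and the Control signal lay below that level. Between 76.9 and 100, where the mean signal of Tfeb lies, 36.5% of genes were beyond 1.5-fold in HF over Control. When signals below the median of an array were raised to that median, Tfeb was 0.98 in HF over Control and 0.09 in HF+SFC over Control, the second no longer beyond 1.5-fold.

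None of the 12 measured V-ATPase genes was beyond 1.5-fold in any of the 3 comparisons. All 12 are in the brightest 25% of signal, where 6.50% of genes were higher and 4.14% lower in HF over Control 0.571% and 1.11% in HF+SFC over HF, and 6.00% and 4.48% in HF+SFC over Control, so that a count of 0 among 12 is not far from the background. Their median was −0.03 in HF over Control, with a range of −0.41 to 0.27, and 0.05 in HF+SFC over HF, with a range of −0.19 to 0.28. Relative to all kept genes the first median was −0.06 and had the other sign under 2 of 9 alternatives, at most 0.07, and the second was 0.05 and above 0 under all of them.

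Within V0, Atp6v0b, a proteolipid subunit, had signals of 1517 in HF+SFC and 1426 in HF, against 1861 in Control, that is, −0.38 in HF over Control and 0.09 in HF+SFC over HF. Its other probe sets gave 0.00 and −0.14 in HF over Control, and −0.20 and −0.17 in HF+SFC over HF, the opposite direction to the brightest one. Atp6v0d1, which links V0 to the central stalk, had 0.20 and −0.05, and Atp6v0e had −0.07 and 0.09. Within V1, Atp6v1f, a stalk subunit, had the lowest ratio of all members in HF over Control, with signals of 4008 in HF+SFC and 3303 in HF, against 4377 in Control. The HF array lay below the other two, at −0.41 in HF over Control and 0.28 in HF+SFC over HF, on 1 probe set. Neither value reached 1.5-fold.

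Atp6v1a, the catalytic subunit, had 0.27 in HF over Control and −0.05 in HF+SFC over HF, and its second probe set gave 0.17 and 0.02. Atp6v1b2, the other subunit of the ATP-binding ring, had −0.04 and 0.05. Atp6v1c1, Atp6v1d, Atp6v1e1 and Atp6v1h ranged between −0.12 and 0.21 in HF over Control. The lowest was Atp6v1c1, whose other kept probe sets gave 0.20 and 0.18, the opposite direction. For Atp6v1e1, a peripheral stalk subunit, a dim probe set parted from the bright one. The bright one had signals of 4561 in HF+SFC, 4311 in HF and 4535 in Control, whereas the dim one had 424 in HF+SFC, 221 in HF and 89.8 in Control, that is, 1.30 in HF over Control and 0.94 in HF+SFC over HF. Which transcript the dim probe set reads was not tested. The accessory proteins Atp6ap1 and Atp6ap2 (the prorenin receptor) had 0.09 and −0.02 in HF over Control, and −0.18 and −0.09 in HF+SFC over HF. The signals of Atp6ap1 were 2698 in HF+SFC, 3054 in HF and 2862 in Control, with HF highest.

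Hydrolases and the V-ATPase can be set side by side on the same arrays. In HF over Control the 23 hydrolases and activator had a median of 0.14, with 17 above 0, against −0.03 for the 12 V-ATPase genes, with 5 above 0. Of all kept genes 53.1% lay above 0, and of those in the brightest 25% of signal 48.7%. The 3 hydrolases at least 1.5-fold higher are 13.0% of the 23, beside 11.3% of all kept genes and 6.50% of genes in the brightest 25% of signal. Most of the 23, and all 3 of these, are of that brightness. In HF+SFC over HF the medians were −0.10, with 16 of 23 below 0, and 0.05, with 5 of 12 below 0. Here 48.8% of all kept genes and 53.5% of those in the brightest 25% lay above 0. Relative to all kept genes the hydrolase median was 0.10 to 0.16 in HF over Control and −0.12 to −0.06 in HF+SFC over HF under the alternatives. The V-ATPase median was −0.07 to 0.07 and 0.01 to 0.06 in the same way, so that the first had no fixed sign. The 6 kept V-ATPase subunits outside the members had a median of 0.30 in HF over Control, with 4 above 0, and of 0.05 in HF+SFC over HF. No test of the difference between the 2 groups was possible.

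**Figure D4:**
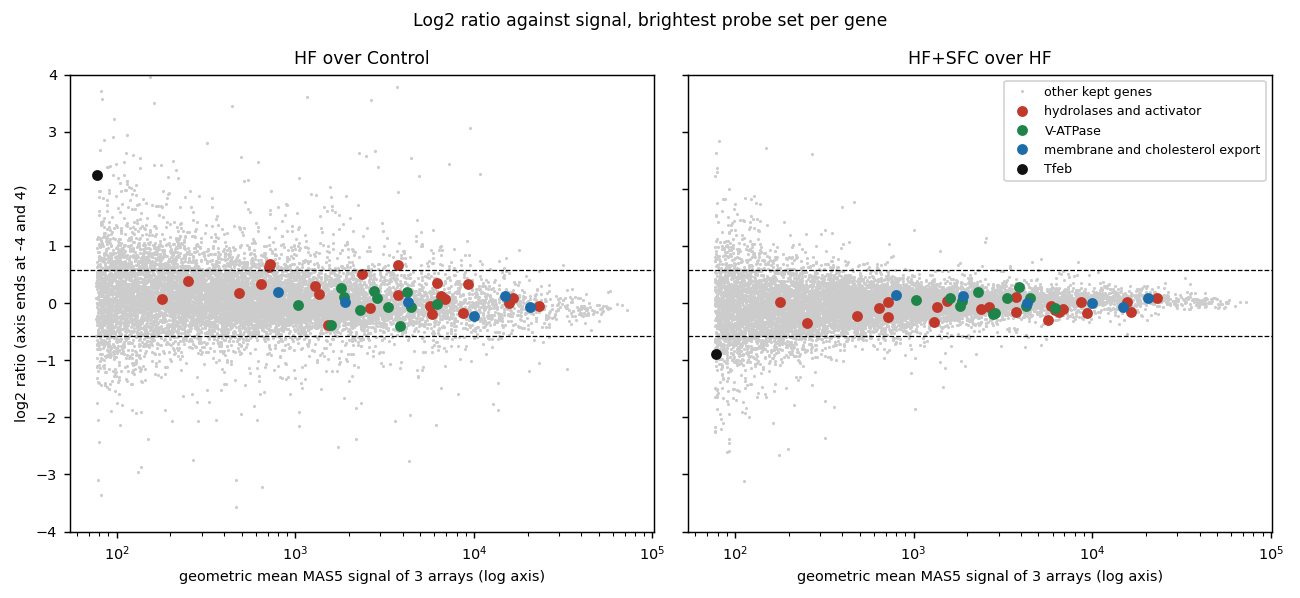
Log2 ratio (y axis) against geometric mean MAS5 signal over the 3 arrays (x axis, logarithmic) of 11341 kept genes, HF over Control on the left and HF+SFC over HF on the right; grey points are other genes, coloured points are members and dashed lines mark 1.5-fold. Tfeb sits at the dim end, at a mean signal of 77.9, where the grey points spread most, and 39 of the 42 members lie at a signal of 394 or more.

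Of the 14 kept members with TCACGTG, 0 were at least 1.5-fold higher in HF over Control, whereas the 4 members that were higher were among the 21 kept members with a window but no such match. With 11.3% of all kept genes higher, these counts are too small to set the 2 groups apart. The median in HF over Control was 0.19 with the match and 0.06 without it, and in HF+SFC over HF it was −0.05 and −0.09. Lamp1, with its 4 matches shown above, had 0.12 and −0.08.

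Other genes of the pathway were read in the same way from lists of 34 further hydrolases, 16 membrane proteins, 12 V-ATPase subunits, 15 genes that sort enzymes to the lysosome and 17 relatives and partners of TFEB and the lysosomal mTORC1 dock. In the background, 11.3% of kept genes were higher and 5.84% lower in HF over Control, and 2.88% higher and 5.33% lower in HF+SFC over HF. Of 28 further hydrolases kept, 3 passed 1.5-fold upwards and 2 downwards in HF over Control (median 0.12), and 0 were beyond 1.5-fold in HF+SFC over HF (median −0.05). Dnase2a, which degrades DNA in the lysosome, had the lowest ratio, with signals of 1603 in HF+SFC and 1394 in HF, against 3587 in Control (−1.36 in HF over Control). Idua, an iduronidase of heparan and dermatan sulfate breakdown, was higher at 0.82, and Siae, a sialic acid esterase, at 0.71. Gm2a, the activator that presents GM2 to the enzyme of which Hexa is a subunit, was lower in HF than in Control at −0.67, the opposite direction to Hexa.

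Of 14 further membrane proteins kept, Abca2, a lipid transporter, and Cd68, a lysosomal glycoprotein of macrophages, were higher in HF over Control at 1.80 and 0.78, and Cd68 was lower in HF+SFC than in HF at −0.60. The Control signal of Abca2, 45.7, was below the level for keeping a probe set. Litaf, a regulator of endosomal sorting, had −0.50 in HF over Control. Of 6 further V-ATPase subunits kept, Atp6v0d2, an isoform known from osteoclasts and macrophages, had signals of 326 in HF+SFC and 300.0 in HF, against 55.9 in Control (2.42 in HF over Control). Its Control signal too was below the level for keeping a probe set. Both high-fat diet arrays stood above Control and differed from each other by 0.12. Atp6v0a1 and Tcirg1, isoforms of the subunit that anchors V0, had 0.36 and 0.34 in HF over Control and −0.01 and 0.02 in HF+SFC over HF.

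Among the 15 sorting genes, Gnptab, the transferase that makes the mannose-6-phosphate tag of lysosomal enzymes, was at least 1.5-fold higher, with signals of 361 in HF+SFC and 410 in HF, against 153 in Control (1.42 in HF over Control). Gga1, an adaptor that carries tagged enzymes from the Golgi, had 0.57, and Ap1b1, a subunit of the adaptor AP-1, had 0.50 in HF over Control and −0.52 in HF+SFC over HF. Among the 16 kept relatives and partners of TFEB, Fnip2, a partner of folliculin at the lysosome, had signals of 2428 in HF+SFC and 2335 in HF, against 953 in Control (1.29 in HF over Control). The TFEB relatives Mitf and Tfe3 had −0.37 and −0.09 in HF over Control, a direction unlike that of Tfeb. Rragd, a GTPase of the mTORC1 dock, had 0.42.

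Lysosomal genes are expressed in several cell types of the liver, and in a bulk sample fewer cells of a type and less RNA per cell cannot be told apart. Of 21 kept macrophage markers of 23 listed, 21 were above 0 in HF over Control and 8 were at least 1.5-fold higher (median 0.50), and 21 were below 0 in HF+SFC over HF, 8 of them at least 1.5-fold lower (median −0.46). Over all kept genes 11.3% were higher in HF over Control and 5.33% lower in HF+SFC over HF, and 53.1% and 48.8% lay above 0. The summed signal of the macrophage markers was 29323 in HF+SFC, 40725 in HF and 29313 in Control. Marco, a scavenger receptor of Kupffer cells, had −1.82 in HF+SFC over HF, and Gpnmb and Lgals3 had 1.32 and 1.13 in HF over Control. The Control signal of Gpnmb, 61.7, was below the level for keeping a probe set. Of 13 kept stellate cell and matrix markers of 14 listed, 9 were at least 1.5-fold higher in HF over Control (median 0.78) and 6 at least 1.5-fold lower in HF+SFC over HF (median −0.39), Col3a1 having 1.70 and −0.76 and Col1a2 having 1.34 and −0.80. Their summed signal was 22756 in HF+SFC, 29770 in HF and 19527 in Control. The 11 endothelial markers had medians of 0.09 and −0.22 and summed to 11267 in HF+SFC, 12814 in HF and 11505 in Control, with Lyve1 at 1.35 and −0.65.

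Hepatocyte markers, which check the labelled tissue, were bright on all arrays. The 12 kept of 14 summed to 432253 in HF+SFC, 428984 in HF and 463080 in Control, and their medians were −0.09 in HF over Control and 0.02 in HF+SFC over HF. The lowest signal of any of the 12 was 480 in HF+SFC, 544 in HF and 402 in Control, so that none was near 0. Hnf4a, a transcription factor of hepatocytes, had −0.61 in HF over Control. The macrophage, stellate and endothelial sums were highest in HF. Of the 42 members, 19 had their highest signal in HF, among them Hexa, Ppt1 and Tfeb, 14 had it in HF+SFC, among them Neu1 and Npc1, and 9 had it in Control, among them Scarb2 and Gaa. These counts were not made over all kept genes and have no background beside them, so they show nothing particular to the members. The part of macrophages, stellate cells and endothelial cells in the members' ratios was not tested.

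**Figure D5:**
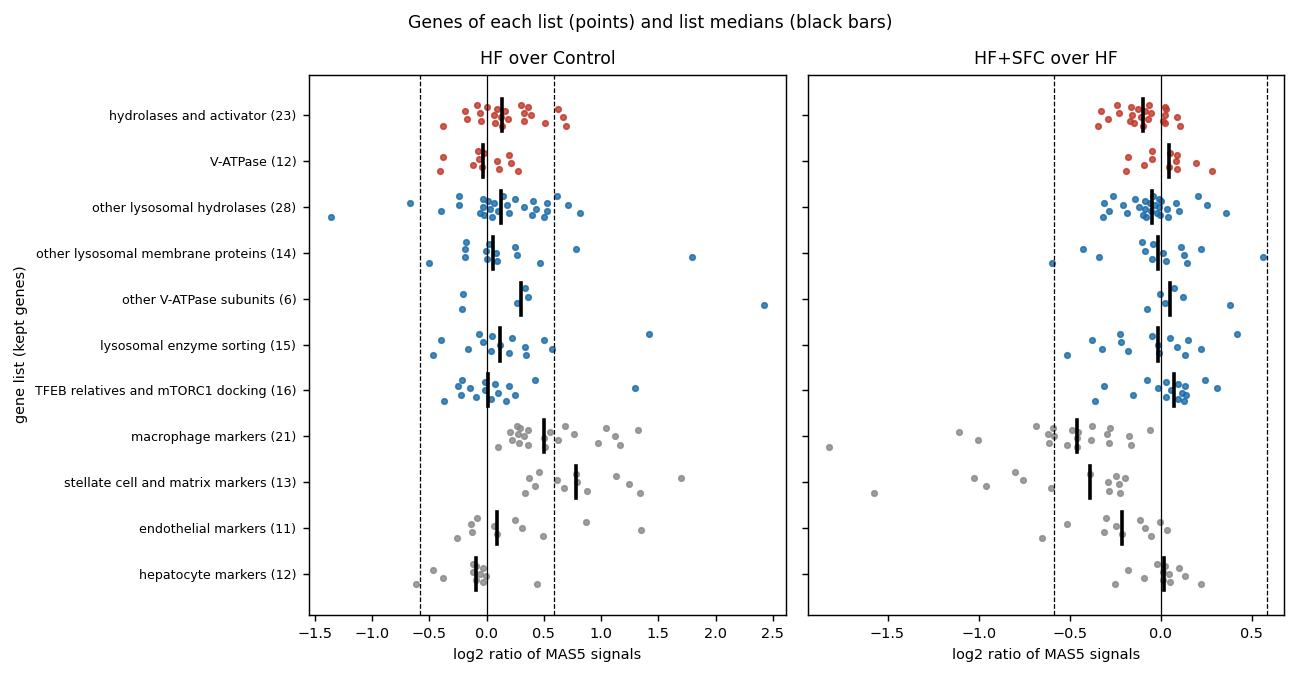
Log2 ratios of the kept genes of each list (points; number of genes in brackets), HF over Control on the left and HF+SFC over HF on the right; red lists are members, blue lists are other lysosomal genes, grey lists are cell type markers, black bars are list medians and dashed lines mark 1.5-fold. The hydrolases have medians of 0.14 and −0.10 and the V-ATPase genes of −0.03 and 0.05, beside 0.50 and −0.46 for the macrophage markers.

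The signal of the 3′ over the 5′ probe set ranged from 1.65 to 1.84 in Actb, from 0.680 to 0.708 in Gapdh and from 3.23 to 4.28 in Pcx, with HF lowest each time, and their part in the members' ratios was not tested. Over all kept genes, 1282 passed 1.5-fold upwards and 662 downwards in HF over Control, and 327 and 605 did so in HF+SFC over HF. Median centring gave 980 and 954 in HF over Control and 535 and 397 in HF+SFC over HF, and quantile normalisation gave 452 and 456 in HF+SFC over HF.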

How the data were processed

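Liver RNA of pooled mice was labelled with biotin and hybridised to 3 Affymetrix GeneChip mouse arrays, 1 each for HF+SFC, HF and Control. The deposited values are MAS5 signal intensities on a linear scale, which the authors had scaled so that the 2% trimmed mean was 500.004 on each array. The version of MAS5 is not given in the sources used here. Median signals were 80.4 in HF+SFC, 87.3 in HF and 81.7 in Control. Detection calls and background were not used, and the number of arrays limits the precision.

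Of 45037 probe sets other than 64 controls, 34945 named 1 gene in the platform annotation, 932 named several and were not used, and 9160 were not listed in it. Entrez identifiers of 34741 were found in the RefSeq table of GRCm38.p6 and 0 symbols differed. Each gene's log2 ratios came from the probe set whose mean log2 signal was highest, and genes in the upper 50% of signal were kept. With 1 array per group no model was fitted and no test was run. Counts at 1.5-fold and medians are read against those over all kept genes.

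Members with full values on each array are those beyond 1.5-fold in HF over Control or HF+SFC over HF, and the member of largest ratio in each role group. Up to 3 genes of each other list are named, mostly by largest ratio, and any further gene with values was chosen after its values were seen. Des of the stellate list and Atp6v1e2 of the V-ATPase list were not named above. Their ratios in HF+SFC over HF, −1.57 and 0.38, were larger in size than those of genes named from these lists. The members and lists were chosen with earlier results of these data known. Alternatives were quantile normalisation, median centring, lowess (fraction 0.3), no filter and the upper 25% of signal. Others were a floor at the array median, a pseudocount of 16 and the median over probe sets. The last were leaving out probe sets whose suffix is _s_at, _x_at or _a_at, and a 2-fold threshold. Python 3.11.15, pandas 2.3.3, numpy 2.4.6 and statsmodels 0.14.6 were used, and the steps were tested on simulated data. The simulated noise was smaller than the spread of the ratios of dim genes here, so the simulation does not check calls at such signals.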

Additional observations from a re-analysis of the deposited data

How the results depend on the processing

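No paired analysis was possible because each group has 1 array. For the same reason no array could be left out. With median centring the median of the members was −0.0043 in HF over Control and 0.0661 in HF+SFC over HF, and 2 members (Neu1, Tfeb) were at least 1.5-fold higher in HF over Control. This centring moved the median of all kept genes too, to −0.07 in HF over Control and 0.11 in HF+SFC over HF, against 0.03 and −0.01, so that the members lay 0.06 above and 0.04 below all genes as before. Without probe sets whose suffix is _s_at, _x_at or _a_at (32 members), the median in HF+SFC over HF was 0.0091 and 1 member, Man2b1, was at least 1.5-fold higher. At 2-fold, 1 member was higher in HF over Control, 1 was higher in HF+SFC over Control and 0 were lower in HF+SFC over HF. In the upper 25% of signal, which leaves out Tfeb, 1 member was higher in HF+SFC over Control and 0 were lower in HF+SFC over HF. With the floor at the array median, 1 was higher in HF+SFC over Control. With the median over probe sets, 2 members (Ctsc, Tfeb) were lower in HF+SFC over HF. Of the other 75 values of these counts and medians, each stayed within 1.5 times the count or within the spread between probe sets. Without the filter on signal, 3699 genes were higher and 2755 lower in HF over Control, and 2330 and 3028 in HF+SFC over HF, while the members did not change. Tfeb is limited by its low signal.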
